A study of Mus musculus with 8 samples.

Results

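The genes described here are 42 genes of the blood vessel wall, measured in the lumbar spinal cord of male SOD1G93A mice, which carry a mutant human SOD1 transgene and are a model of amyotrophic lateral sclerosis. They were listed by name as genes of endothelial cells, pericytes and vascular smooth muscle, with no threshold on their values though with earlier results of these data known, and all 42 were found among the 55291 genes counted. By function they were divided into 16 endothelial identity genes, 10 genes of barrier junctions and transport, 5 genes of activated endothelium, 7 pericyte genes and 4 genes of vascular smooth muscle. The 4 mice with *Ager* deletion (in order E1776, E5231, E5248, E5568) were SOD1G93A *Ager* fl/fl *Cx3cr1* Cre/+, and the 4 Cre controls (in order E5386, E5642, E6578, E6732) were SOD1G93A *Ager*+/+ *Cx3cr1* Cre/+. Lists of 4 values follow these orders. The Cre was a tamoxifen-inducible CreERT2 placed in the *Cx3cr1* gene, which in the cord is used mainly by microglia, and it leaves all 8 mice with 1 working *Cx3cr1* copy. All 8 mice were C57BL/6 by the labels, C57BL/6J by the study's methods, and received tamoxifen, which the labels give as 5 daily intraperitoneal injections of 0.2 µg at 12 weeks. The labels give an age of 120 days at tissue collection, whereas the study's text describes tissue from humane endpoint. No mouse among these 8 lacked the SOD1 transgene, so the comparison is of *Ager* deletion within disease.

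In the cord, endothelial cells are sealed by tight junctions and carry transporters that move chosen solutes in and push drugs and toxins out, which together form the blood-spinal cord barrier. Pericytes share the capillary basement membrane with the endothelium, and smooth muscle surrounds arterioles and arteries. RAGE, the product of *Ager*, is a receptor for advanced glycation end products and other ligands, and endothelial cells are known to answer inflammatory signals by displaying adhesion molecules that capture leukocytes.

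Each library held between 31148047 and 40324897 counts on genes, so that 3 counts, taken as the smallest detectable amount, were worth between 0.0730 and 0.0975 CPM, that is counts scaled to the size of the library. Values are CPM after TMM normalization (trimmed mean of M values), and log2 fold changes are for *Ager*-deleted mice over Cre controls. The targeted gene, *Ager*, measured 0.889, 1.51, 1.02 and 1.34 CPM in *Ager*-deleted mice and 1.53, 2.22, 2.18 and 2.41 CPM in controls. This is a log2 fold change of -0.81 (standard error 0.22), for which edgeR's exact test gave an adjusted p of 0.252. All 18 of the listed genes of neurons, glia and the lumbar Hox code were tested, with summed levels of 28180 to 34020 CPM in *Ager*-deleted mice and 30120 to 32770 CPM in controls. Some libraries stood apart in lists of genes named for tissues other than the cord. A list of 39 skeletal muscle genes summed to 1730 and 2494 CPM in controls E5386 and E5642, against 256 to 275 CPM in the other mice. Its highest genes by mean level were *Pygm*, *Acta1* and *Pvalb*, and whether the 256 to 275 CPM came from muscle was not tested. A list of 15 adipocyte genes summed to 429.8 CPM in E5386, against 73.5 to 273 CPM elsewhere. A list of 30 liver genes summed to 1151 CPM in control E6732, against 85.2 to 139 CPM elsewhere. Control E5386 also had the least of 14 Schwann cell genes, 933 CPM against 1305 to 2275 CPM. No gene of these lists was at 0 in all mice. The part of these libraries in the vascular values was not tested, and values without E5386 and E5642 are given beside the results they touch.

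Of the 42 vascular genes, 40 passed the filter on low counts and were tested. Both genes that were not, *Sele* and *Selp*, encode the adhesion molecules E-selectin and P-selectin. In edgeR's exact test 0 of the 40 had an adjusted p under 0.05, a threshold passed by 14 (0.0719%) of the 19470 genes tested. An unadjusted p under 0.05 in that test was found for 3 of the 40, and for 4.26% of all genes tested. Of these, *Slco1a4* and *Abcg2* were lower in *Ager*-deleted mice, as were 3.06% of all genes, and *Sox18* was higher, as were 1.2% of all genes. In edgeR's quasi-likelihood test 0 of the 40 had an adjusted p under 0.05, against 0.00514% of all genes, and 4 had an unadjusted p under 0.05 (*Sox17* beside the same 3 genes), against 6.71% of all genes. DESeq2 called 1 of the 40, *Slco1a4*, against 0.129% of the 19432 genes to which it gave an adjusted p, and limma-voom called 0, against 0.00514% of all genes. *Ager*-deleted and control mice were apart in CPM, with no overlap, for 1 of the 40, *Slco1a4*, and for 3.88% of all genes tested, of which those with *Ager*-deleted mice below controls made up 1.91% of all genes. The shares over all genes include the skeletal muscle list, which was raised in controls E5386 and E5642. It held 3 of the 14 genes called by the exact test (*Atp2a1*, *Ckm* and *Myh4*). Of its 35 tested genes 32 had an unadjusted p under 0.05 in that test, all lower. Of the 40 vascular log2 fold changes 16 were above and 24 were below 0, with a median of -0.03 beside 0.01 over all genes tested.

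The precision of these differences can be read from the 95% intervals of the quasi-likelihood fit. For 39 of the 40 genes the interval lay inside a log2 fold change of 1 in either direction, and for 25 it lay inside 0.5. Over all genes tested these bounds held for 17656 and 12745 of 19470. The 1 gene with a wider interval was *Cnn1*, the smooth muscle protein calponin, which had only 8 to 27 counts per mouse. The largest differences were those of *Slco1a4*, at -0.53, and *Sox18*, at 0.50.

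**Figure D1:**
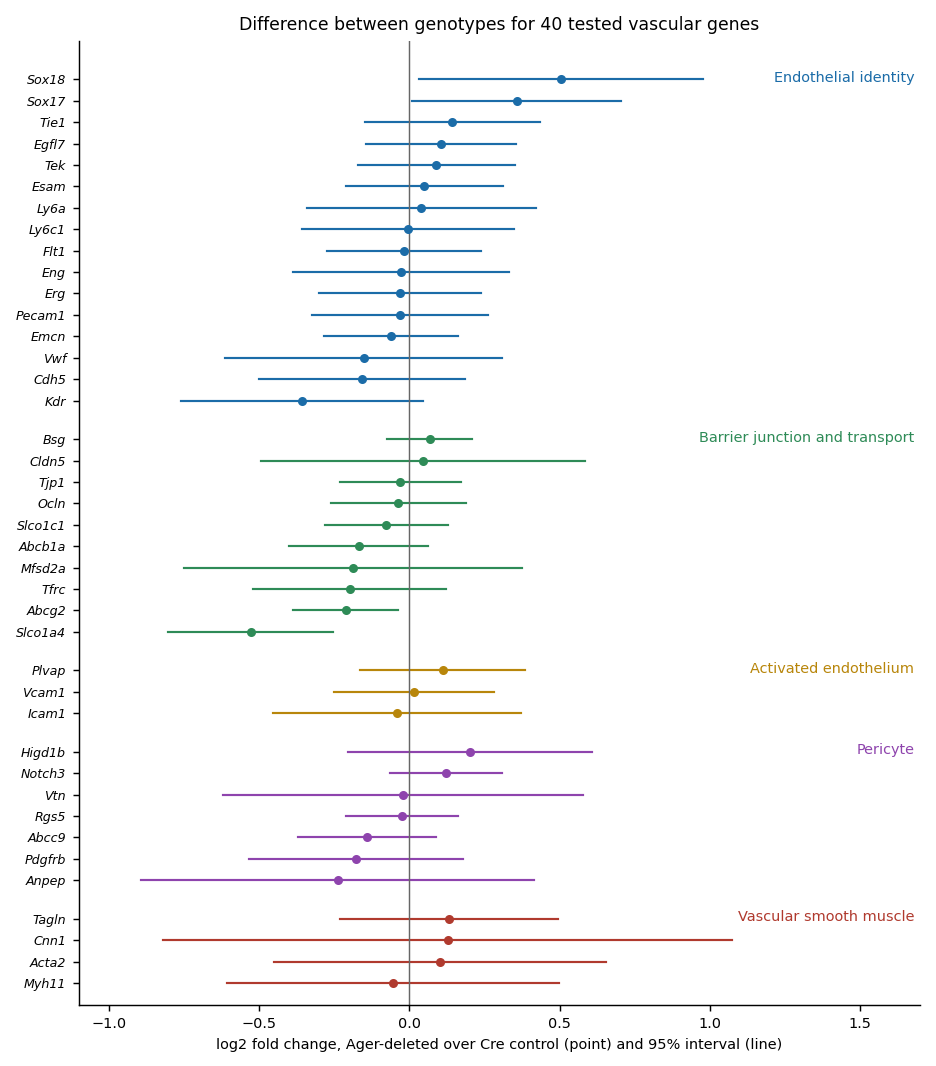
Log2 fold change of each of the 40 tested vascular genes, *Ager*-deleted over Cre control, as a point with its 95% interval from edgeR's quasi-likelihood fit, coloured and grouped by role. Only the intervals of *Sox18*, *Sox17*, *Abcg2* and *Slco1a4* leave out 0, and these are not adjusted for the 19470 genes tested.

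Levels of the genes relative to each other were compared per kilobase of exon, since longer transcripts collect more reads. The length was that of all annotated exons of a gene together, 13.5 kb for *Flt1* and 16.1 kb for *Vwf*. Where the transcripts present are shorter than this, the level per kilobase is too low, so the order is approximate. *Bsg*, which encodes basigin, a chaperone of monocarboxylate transporters, was by far the highest at 216 ± 10.3 CPM per kilobase (SD, n = 8). Basigin is made by many cell types, and so are ZO-1 (*Tjp1*) and the transferrin receptor (*Tfrc*), so their whole-cord levels are not those of vessels alone. Next came *Vtn* at 38.0 ± 11.3, *Tjp1* at 27.7 ± 2.46, *Ly6a* at 25.1 ± 4.93, *Mfsd2a* at 24.3 ± 7.38 and *Ly6c1* at 24.2 ± 4.24 CPM per kilobase. Most of the canonical endothelial receptors and adhesion molecules were lower, from 7.10 ± 0.891 for *Flt1* to 1.16 ± 0.264 CPM per kilobase for *Kdr*. The smooth muscle genes ranged from 3.67 ± 1.08 for *Acta2* to 0.180 ± 0.0771 CPM per kilobase for *Cnn1*. In this order of 42 genes, every neighbouring pair overlapped between mice except *Bsg* and *Vtn*, *Myh11* and *Cnn1*, and *Cnn1* and *Selp*. In whole-cord RNA, fewer cells of a type and less RNA per cell cannot be told apart.

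**Figure D2:**
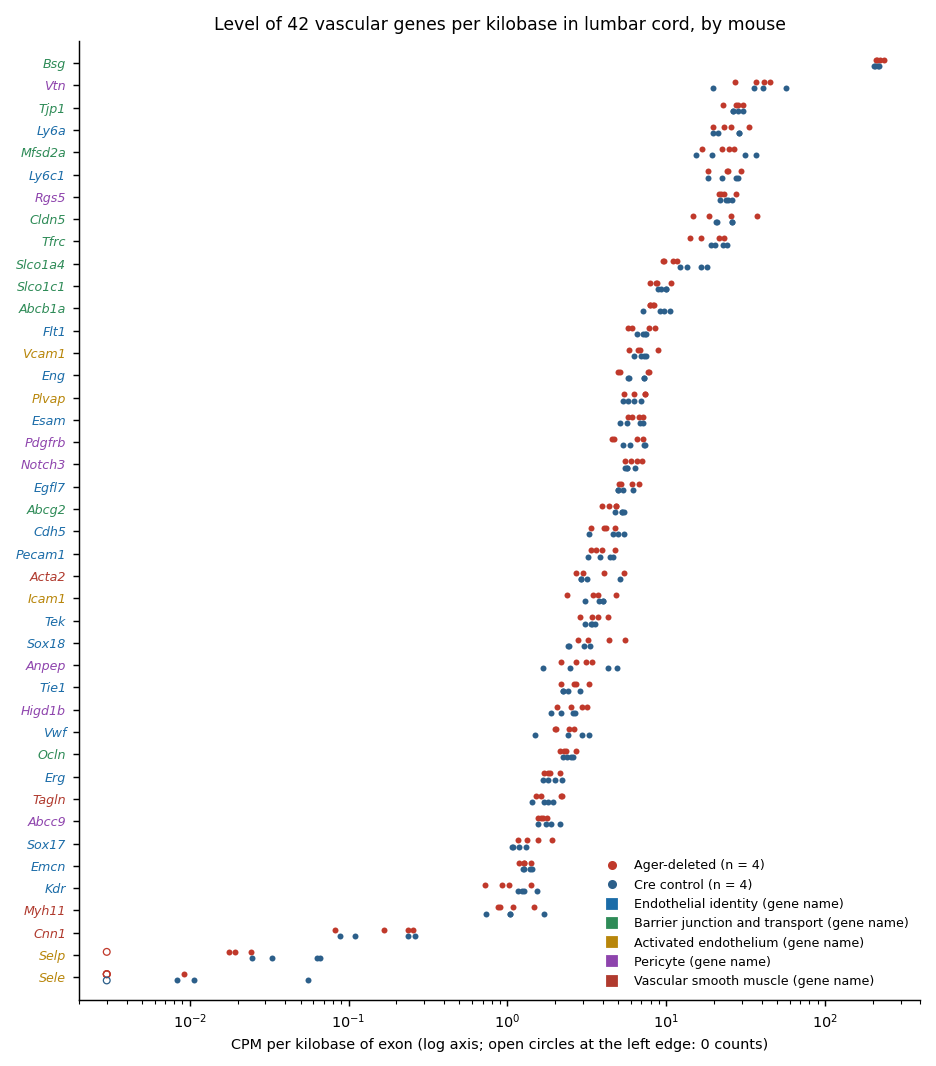
CPM per kilobase of exon for the 42 vascular genes on a log axis, with 1 point for each mouse (red, *Ager*-deleted; blue, Cre control) and gene names coloured by role. Red and blue points overlap for every tested gene but *Slco1a4*, and the selectin genes *Selp* and *Sele* lie at the bottom with open circles for mice without a count.

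*Slco1a4*, the barrier transporter OATP1A4 that carries bile acids, steroid conjugates and many drugs across brain endothelium, had the smallest p of the 42 genes. The gene occupies bases 141805440 to 141856199 of chromosome 6, reverse strand (GRCm38, which is mm10). It measured 70.9, 74.6, 61.4 and 62.0 CPM in *Ager*-deleted mice, and 78.3, 116, 107 and 86.7 CPM in controls. The lowest control lay above the highest *Ager*-deleted mouse, by little, and of the libraries with raised skeletal muscle genes E5386 was the lowest control and E5642 the highest. *Ager*-deleted mice averaged 67.2 ± 6.56 CPM and controls 97.0 ± 17.5 CPM (SD, n = 4 each), a ratio of 69.3%. An exact two-sided permutation test of log2(CPM + 1) gave p = 0.0286, which is the lowest value possible with 4 mice in each group. Any gene without overlap gets this value, so it adds nothing to the separation.

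The log2 fold change of *Slco1a4* was -0.53 (standard error 0.12, 95% interval -0.80 to -0.25). Its unadjusted p in edgeR's exact test was 0.000118, the 32nd smallest of all genes, and its adjusted p was 0.0713, which did not pass the threshold. In the quasi-likelihood test the adjusted p was 0.705. The gene passed in DESeq2 (adjusted p = 0.0444) and, when common and tagwise dispersions were given to edgeR's exact test, there too (adjusted p = 0.0256), with 0.401% of all genes. Leaving out 1 mouse at a time kept the log2 fold change between -0.63 and -0.44, and edgeR's exact test then gave adjusted p-values from 0.00173 (without control E5386) to 0.548. The gene also passed without control E6732 (adjusted p = 0.0317) and without both E5386 and E5642 (adjusted p = 0.0289, log2 fold change -0.53).

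*Slco1a4* shares its cluster on chromosome 6 with the near copies *Slco1a1*, *Slco1a6* and *Slco1a5*, whose reads could be split among them by the counting. These were far lower: *Slco1a5* was between 0.389 and 0.917 CPM and *Slco1a6* between 0 and 0.0547 CPM. *Slco1a1* was between 0 and 0.0282 CPM except in control E6732, where it was 3.14 CPM beside the liver genes of that library. *Slco1c1*, the thyroxine transporter OATP1C1 of brain endothelium and astrocytes, lies 235 kb from *Slco1a4* and is itself among the 42 genes. It ranged from 41.3 to 55.9 CPM in *Ager*-deleted mice and from 46.1 to 51.6 CPM in controls, with a log2 fold change of -0.08 (95% interval -0.28 to 0.13). The 95% intervals of the neighbours, -0.80 to -0.25 and -0.28 to 0.13, overlapped slightly, and the difference between them was not tested.

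The promoter of *Slco1a4* is shown because it is the gene with the smallest p and because the Sox factors described next are among the 42 genes. The 250 bases before its start site are at chr6:141856221-141856470 on the reverse strand (RefSeq, GRCm38.p6), with the 1 match to the Sox core motif AACAAT in capitals, beginning 145 bases before the start site.
Slco1a4: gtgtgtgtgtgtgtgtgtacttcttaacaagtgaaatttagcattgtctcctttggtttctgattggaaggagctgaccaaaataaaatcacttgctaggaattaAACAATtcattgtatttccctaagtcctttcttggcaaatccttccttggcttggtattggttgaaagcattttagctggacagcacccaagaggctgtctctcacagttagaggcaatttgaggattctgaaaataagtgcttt
Promoters of 250 bases before and 50 after the start site were found for 28 of the 42 genes, in 37 windows, and 5 motifs were searched on both strands. AACAAT was in 5 of the 37 windows (13.5%), those of *Cnn1*, *Emcn*, *Erg*, *Slco1a4* and *Tek*, against 10.7% of all 32851 windows. A second Sox form, TTTGTT, was in 21.6% against 20.2% of all windows. The ETS core CCGGAA was in 8.11% (*Icam1*, *Kdr* and *Ocln*) against 14.9%, and the longer ACCGGAAG that contains it was in 0 of the 37 against 2.3%. The CArG box was in 0 of the 37 against 1.63%. These shares are descriptions of letters in the windows.

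Of the 10 barrier genes, *Slco1a4* included, 8 had log2 fold changes under 0, beside 48.0% of all genes tested. Their median of -0.12 became -0.06 without E5386 and E5642 and ran from -0.18 to -0.06 with each mouse left out. *Abcg2*, the efflux pump BCRP, was the second of the group with an unadjusted p under 0.05. It measured 35.5, 39.5, 32.1 and 39.3 CPM in *Ager*-deleted mice, and 39.1, 43.2, 44.0 and 43.2 CPM in controls. The groups touched at control E5386, which lay just under the 2 higher *Ager*-deleted mice. The means of 36.6 ± 3.54 and 42.4 ± 2.20 CPM (SD, n = 4 each) gave a log2 fold change of -0.21 (standard error 0.08), and edgeR's exact test gave p = 0.0385 before and p = 1 after adjustment. The permutation test gave p = 0.0857. The direction held with each mouse left out in turn, between -0.26 and -0.15.

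*Abcb1a*, which encodes the efflux pump P-glycoprotein, was between 43.4 and 45.7 CPM in *Ager*-deleted mice and spread from 39.4 to 58.2 CPM in controls, with a log2 fold change of -0.17 (95% interval -0.40 to 0.06). Its near copy *Abcb1b* was lower, at 9.96 to 14.3 CPM, with a log2 fold change of -0.13. *Tfrc*, the receptor for iron-laden transferrin, was between 88.0 and 143 CPM and between 119 and 149.7 CPM, with a log2 fold change of -0.20 (95% interval -0.52 to 0.12). *Mfsd2a*, the lysophosphatidylcholine transporter that restrains transcytosis at the barrier, varied more among controls than between genotypes, from 34.8 CPM in E6732 to 83.2 CPM in E5642, beside 37.8 to 60.3 CPM in *Ager*-deleted mice.

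The tight junction genes differed little. *Tjp1* measured 239, 216, 221 and 179 CPM in *Ager*-deleted mice and 237, 208, 207 and 223 CPM in controls. The groups overlapped almost wholly, and its log2 fold change of -0.03 had a 95% interval from -0.23 to 0.17. *Ocln*, which encodes occludin, was between 9.03 and 11.5 CPM in *Ager*-deleted mice and between 9.46 and 10.9 CPM in controls, with a 95% interval from -0.26 to 0.19. *Cldn5*, the claudin that seals the paracellular cleft, was the least even gene of the group: E5231 had 53.2 CPM and E5568 had 20.8 CPM, both *Ager*-deleted, while controls stayed between 29.3 and 37.0 CPM. Its log2 fold change of 0.05 had a 95% interval from -0.49 to 0.58, and it ran from -0.25 to 0.22 as each mouse was left out. *Bsg*, at 407, 427, 381 and 389 CPM in *Ager*-deleted mice and 397, 374, 390.1 and 369.5 CPM in controls, was the most even of all 40 genes, with its highest mouse 1.16 times its lowest. *Ager*-deleted and control mice interleaved for *Bsg*, and its log2 fold change was 0.07 (95% interval -0.08 to 0.21).

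**Figure D3:**
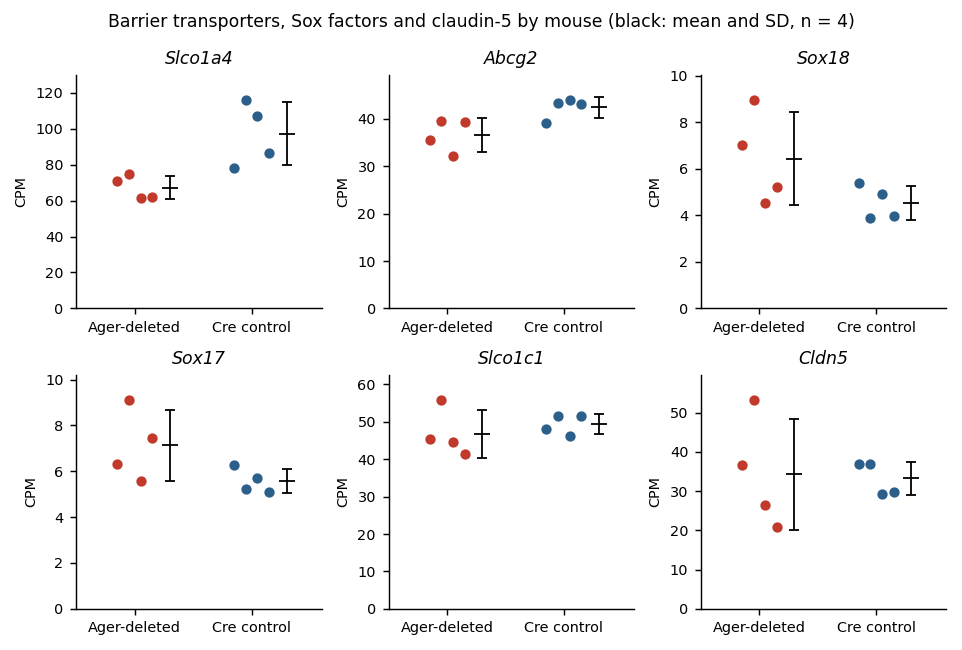
CPM in each mouse for *Slco1a4*, *Abcg2*, *Sox18*, *Sox17*, *Slco1c1* and *Cldn5*, on axes that start at 0, with the mean and SD of 4 mice in black; the last 3 genes were added for comparison after their values were seen. *Slco1a4* alone has no overlap between genotypes, and *Cldn5* has similar means with a wider spread among *Ager*-deleted mice.

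Among the 16 endothelial identity genes, 7 log2 fold changes were above and 9 below 0, with a median of -0.01, and none passed the threshold in either of edgeR's tests. *Sox18*, a SoxF transcription factor of vascular and lymphatic development, was the 1 gene of the group with an unadjusted p under 0.05 in the exact test. It lies on chromosome 2 from 181669836 to 181671640. It measured 7.04, 8.98, 4.54 and 5.22 CPM in *Ager*-deleted mice, and 5.39, 3.89, 4.91 and 3.99 CPM in controls. Only E1776 and E5231 lay above all controls, while the other *Ager*-deleted mice lay within them. The means of 6.44 ± 1.99 and 4.54 ± 0.726 CPM (SD, n = 4 each) gave a log2 fold change of 0.50 (95% interval 0.03 to 0.98), and edgeR's exact test gave p = 0.0374 before and p = 1 after adjustment. The permutation test gave p = 0.143. Leaving out single mice kept the log2 fold change between 0.30 and 0.64.

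Its relative *Sox17*, a SoxF factor of arterial endothelium, was chosen for its values by mouse after these were seen. It measured 6.32, 9.11, 5.59 and 7.47 CPM in *Ager*-deleted mice and 6.26, 5.22, 5.69 and 5.08 CPM in controls. Here 3 *Ager*-deleted mice lay above every control, and E5248 lay among them. Its log2 fold change was 0.36 (95% interval 0.01 to 0.70), with an unadjusted p of 0.0607 in edgeR's exact test. The permutation test gave p = 0.114. *Erg*, an ETS factor that maintains the endothelial state, differed by -0.03 (95% interval -0.30 to 0.24), with 5.90 to 7.41 CPM in *Ager*-deleted mice and 5.80 to 7.64 CPM in controls.

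Of the VEGF receptors, *Kdr* (VEGFR2), the main signalling receptor, was between 6.57 and 12.7 CPM in *Ager*-deleted mice and between 10.6 and 13.9 CPM in controls. Its log2 fold change was -0.36 (95% interval -0.76 to 0.05), with 3 *Ager*-deleted mice below every control and an unadjusted p of 0.0833 in edgeR's exact test. *Flt1* (VEGFR1), which acts largely as a decoy, had nearly equal means of 95.3 ± 17.6 and 96.5 ± 5.24 CPM (SD, n = 4 each), with a 95% interval of its log2 fold change from -0.28 to 0.24. The angiopoietin receptor gene *Tek* (Tie2) was between 13.5 and 20.3 CPM in *Ager*-deleted mice and between 14.6 and 16.9 CPM in controls, and its partner *Tie1* was between 10.7 and 15.98 CPM and between 10.9 and 14.05 CPM. Their log2 fold changes were 0.09 and 0.14, and both 95% intervals included 0. *Eng*, the TGF-beta co-receptor endoglin, differed by -0.03.

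None of the junction and surface genes of the endothelium had an unadjusted p under 0.05 in edgeR's exact test. *Pecam1* (CD31) differed by -0.03, *Cdh5* (VE-cadherin) by -0.16, *Esam* by 0.05 and *Emcn*, the sialomucin of capillaries and veins, by -0.06 on the log2 scale. *Egfl7*, a secreted endothelial factor, differed by 0.11. *Emcn* was the most even of the identity genes, with its highest mouse 1.21 times its lowest. *Vwf*, the clotting factor stored in Weibel-Palade bodies and prominent in larger vessels and veins, was the most uneven after *Sox18*: it was 23.9 CPM in control E5386 and 52.8 CPM in control E6578, which enclosed the 32.2 to 42.5 CPM of the *Ager*-deleted mice. Without E5386 and E5642 its log2 fold change went from -0.15 to -0.32. On the strand opposite to *Egfl7* and *Eng* lie *Agpat2* and *Fpgs*, which were also expressed, and the strand setting of the counting is not given in the sources used here, so counts of these pairs are uncertain.

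The 2 highest identity genes per kilobase were the Ly6 surface proteins, neighbours on chromosome 15 with a gap of 46.0 kb. *Ly6a* (Sca-1) measured 30.7, 40.1, 23.7 and 27.8 CPM in *Ager*-deleted mice and 25.8, 34.6, 34.9 and 23.9 CPM in controls. *Ly6c1* measured 41.2, 49.4, 30.95 and 40.4 CPM in *Ager*-deleted mice and 38.0, 46.3, 47.5 and 30.8 CPM in controls. In both genes E5231 was the highest and the genotypes overlapped throughout, with log2 fold changes of 0.04 and -0.01. *Ly6c2*, a near copy of *Ly6c1* that marks monocytes, was at 0.734 to 3.56 CPM.

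The 3 tested genes of activated endothelium overlapped between the genotypes. *Vcam1*, which binds integrins on leukocytes, measured 60.8, 79.4, 51.5 and 59.3 CPM in *Ager*-deleted mice and 62.0, 66.5, 55.7 and 64.2 CPM in controls. Its means were 62.8 ± 11.8 and 62.1 ± 4.63 CPM (SD, n = 4 each), and the 95% interval of its log2 fold change of 0.02 was from -0.25 to 0.28. Controls lay inside the range of the *Ager*-deleted mice, whose highest was E5231.

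*Icam1*, the other main leukocyte ligand, measured 16.2, 21.2, 10.3 and 15.1 CPM in *Ager*-deleted mice and 17.4, 16.4, 13.5 and 17.4 CPM in controls. The highest and the lowest mouse were both *Ager*-deleted, and the log2 fold change of -0.04 had a 95% interval from -0.46 to 0.37. Microglia and astrocytes can also make *Icam1* and *Vcam1*, which whole-cord counts do not separate. *Plvap*, the protein of fenestral and caveolar diaphragms that the mature barrier largely lacks, measured 10.7, 14.6, 12.4 and 14.6 CPM in *Ager*-deleted mice and 13.8, 10.7, 11.4 and 12.5 CPM in controls. Its genotypes overlapped, with a log2 fold change of 0.11 (95% interval -0.16 to 0.38), and *Gtpbp3*, expressed on the opposite strand, makes its counts uncertain.

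The selectins, which let leukocytes roll on activated endothelium, had 0 to 9 counts per mouse and were removed by the filter on low counts. *Selp* had 0, 4, 3 and 3 counts in *Ager*-deleted mice and 4, 9, 9 and 6 counts in controls. All 4 *Ager*-deleted mice were below all controls as CPM, at up to 0.108 against at least 0.109 CPM, a separation that rests on equal counts of 4 in E5231 and E5386. *Sele* had 0, 1, 0 and 0 counts in *Ager*-deleted mice and 0, 1, 5 and 1 counts in controls. In sum over 4 mice *Selp* had 10 against 28 counts and *Sele* had 1 against 7 counts, and no fold change is given for either. With no filter on low counts, edgeR's exact test on 38301 genes gave *Selp* an unadjusted p of 0.0174, a threshold of 0.05 being passed by 3.14% of those genes, and *Sele* 0.120. Both adjusted p-values were 1.

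The 7 pericyte genes had 2 log2 fold changes above and 5 below 0, with a median of -0.02, and no unadjusted p under 0.05. *Rgs5*, a regulator of G-protein signalling that marks brain pericytes, measured 106, 125, 102 and 97.9 CPM in *Ager*-deleted mice and 108, 111, 99.7 and 118 CPM in controls. It was among the most even genes, with the genotypes interleaved and a log2 fold change of -0.02 (95% interval -0.21 to 0.16). *Pdgfrb*, the receptor through which endothelial PDGF-B recruits pericytes, was between 25.2 and 39.0 CPM in *Ager*-deleted mice and between 29.4 and 40.6 CPM in controls, with a log2 fold change of -0.18 (95% interval -0.54 to 0.18). *Abcc9*, the sulfonylurea receptor subunit of the pericyte potassium channel, differed by -0.14 and *Notch3*, the mural Notch receptor, by 0.12, with *Gm17276* expressed on the strand opposite to *Notch3*. *Higd1b*, a small mitochondrial protein used as a pericyte marker, was at 1.75 to 2.696 CPM and 1.61 to 2.27 CPM and differed by 0.20 (95% interval -0.20 to 0.61).

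*Vtn* and *Anpep* varied most among the pericyte genes, and they did so among controls. *Vtn*, which encodes the matrix protein vitronectin, measured 55.1, 92.2, 84.1 and 74.9 CPM in *Ager*-deleted mice and 39.9, 72.3, 83.3 and 115 CPM in controls. The lowest value was that of E5386, the highest that of E6732, and the *Ager*-deleted mice lay between. *Anpep*, aminopeptidase N (CD13), had the same extremes, 6.97 CPM in E5386 and 20.4 CPM in E6732, beside 9.07 to 14.04 CPM in *Ager*-deleted mice. Vitronectin is also a major product of the liver, and E6732 is the library with the raised liver genes. Aminopeptidase N and vitronectin are known in meningeal tissue too, and a list of 20 leptomeningeal and perivascular fibroblast genes had its lowest sum, 325 CPM, in E5386 and its highest, 998 CPM, in E6732, against 493 to 962 CPM in the other mice. Their part in the *Vtn* and *Anpep* values was not tested. The 95% intervals were wide, from -0.62 to 0.58 for *Vtn* and from -0.89 to 0.41 for *Anpep*, and without E5386 and E5642 their log2 fold changes went from -0.02 to -0.38 and from -0.24 to -0.39, with adjusted p-values of 1 in edgeR's exact test.

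The 4 smooth muscle genes did not separate the genotypes. *Acta2*, smooth muscle actin, measured 8.92, 11.9, 5.98 and 6.54 CPM in *Ager*-deleted mice and 6.40, 7.01, 11.3 and 6.40 CPM in controls. *Ager*-deleted E5231 and control E6578 were high and the other mice of both genotypes overlapped. *Tagln*, the actin-binding protein SM22, measured 3.02, 4.31, 3.25 and 4.37 CPM in *Ager*-deleted mice and 2.84, 3.58, 3.84 and 3.40 CPM in controls. Its genotypes overlapped as well, and *Pcsk7* is expressed on the strand opposite to *Tagln*.

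*Myh11*, the smooth muscle myosin heavy chain, was highest in the same pair as *Acta2*, at 11.2 CPM in E5231 and 12.9 CPM in E6578, against 5.59 to 8.28 CPM elsewhere. *Cnn1* was between 0.226 and 0.698 CPM in *Ager*-deleted mice and between 0.243 and 0.715 CPM in controls. The log2 fold changes were 0.10 for *Acta2*, 0.13 for *Tagln*, -0.06 for *Myh11* and 0.11 for *Cnn1*, and their median of 0.11 turned to -0.02 without E5386 and E5642. The skeletal muscle list summed to 256 CPM in E6578 and 263 CPM in E5231. All mice but E5386 and E5642 had such sums, from 256 to 275 CPM. Whether that list and the smooth muscle genes are connected was not tested.

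The genes also varied between mice of a genotype. In mouse E5231, which is *Ager*-deleted, 20 of the 40 tested genes had their highest value of the 8 mice and 0 had their lowest, whereas 17.1% of all genes tested were highest in that mouse. Its genes lay a median of 0.22 above their mean over 8 mice as log2(CPM + 1), beside 0.00 over all genes tested. The endothelial identity genes accounted for 9 of the 20, barrier genes for 4, activation genes for 3, pericyte genes for 3 and smooth muscle genes for 1. In the other *Ager*-deleted mice E5248 and E5568, 9 and 10 of the 40 had their lowest value, against 18.1% and 9.38% of all genes, and their medians were -0.13 and -0.07. Controls E6732 and E5386 had the lowest value of 9 and 7 of the 40, against 8.53% and 9.45% of all genes. Controls E5642 and E6578 had medians of 0.09 and 0.10, and controls E5386 and E6732 of -0.05 and -0.04. Between the highest and the lowest mouse the 40 genes differed by a median of 1.55-fold, beside 1.42-fold over all genes tested, from 1.16-fold for *Bsg* to 3.17-fold for *Cnn1*. The order of mice was not the same for all roles: *Slco1a4*, *Mfsd2a* and *Abcb1a* were highest in controls E5642 or E6578.

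**Figure D4:**
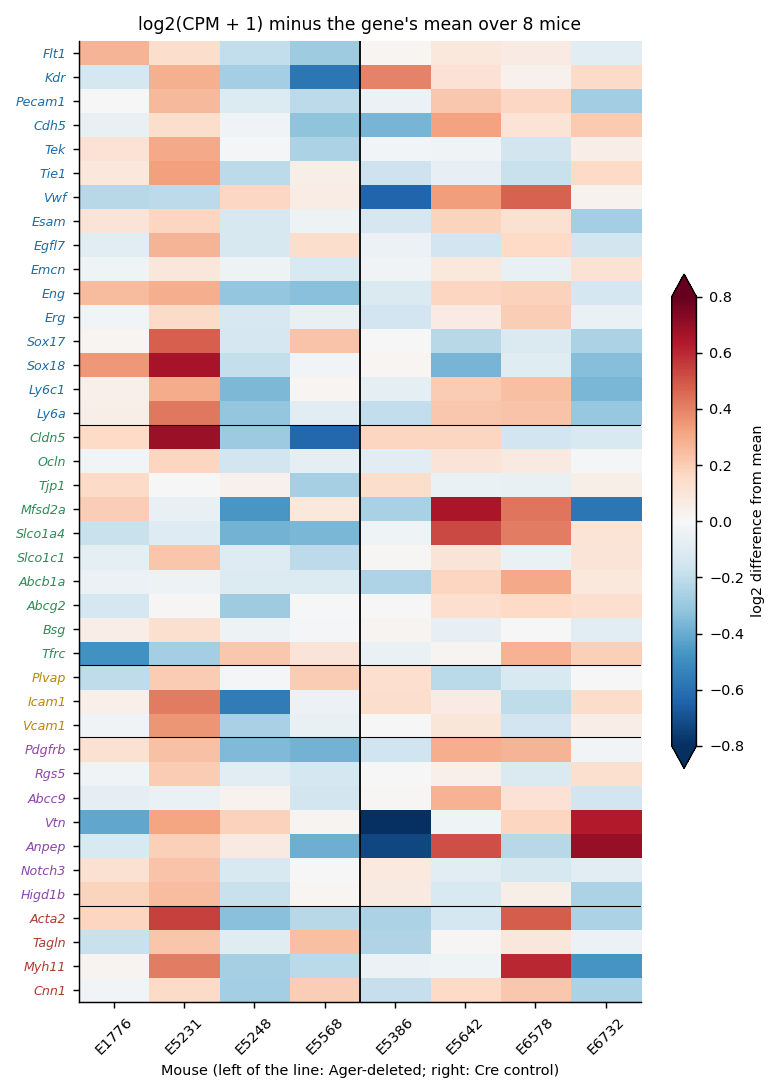
Each tile is the log2(CPM + 1) of a vascular gene in a mouse minus that gene's mean over the 8 mice, with genes in rows grouped by role and *Ager*-deleted mice to the left of the line. The column of E5231 is red for most genes, the columns of E5248 and E5568 are mostly blue, and *Vtn*, *Anpep* and *Vwf* are bluest in control E5386.

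Other genes of vessels were taken from 4 lists written by function. In edgeR's exact test on all 8 mice no gene of these lists had an adjusted p under 0.05, against 0.0719% of all genes tested. An unadjusted p under 0.05 in that test was found for 4.26% of all genes, 3.06% lower and 1.2% higher in *Ager*-deleted mice. Of 30 genes of angiogenic and Notch signalling 1 had an unadjusted p under 0.05, and the median log2 fold change was -0.02. This was *Pgf*, placental growth factor and a ligand of *Flt1*, at 12.6, 14.2, 12.0 and 14.1 CPM in *Ager*-deleted mice and 11.4, 10.2, 10.9 and 10.8 CPM in controls. Its genotypes did not overlap, with every *Ager*-deleted mouse above every control by a small step (log2 fold change 0.29, adjusted p = 0.993 in edgeR's exact test). Of 35 further genes of barrier Wnt signalling and transport 1 had an unadjusted p under 0.05, *Pltp*, a phospholipid transfer protein, with a log2 fold change of 0.26 and an adjusted p of 1, and the median was 0.00. *Slc2a1*, the barrier's glucose transporter GLUT1 and a further gene of this list, was between 186 and 228 CPM in *Ager*-deleted mice and between 155 and 223 CPM in controls, and was named for its role after its values were seen.

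Of 29 other endothelial genes 2 had an unadjusted p under 0.05, both lower, and the median log2 fold change was -0.06. *Myct1*, an endothelial membrane protein, measured 0.330, 0.566, 0.310 and 0.362 CPM in *Ager*-deleted mice and 0.957, 0.587, 0.878 and 1.09 CPM in controls, from 11 to 45 counts. Every *Ager*-deleted mouse was below every control, E5231 by the least, and the log2 fold change was -1.17 (standard error 0.27). edgeR's exact test gave it an adjusted p of 0.0881, between 0.0472 (without control E5642) and 0.548 with each mouse left out, and 0.0581 without E5386 and E5642. *Calcrl*, the receptor for adrenomedullin and CGRP, differed by -0.28 with overlapping genotypes (adjusted p = 1).

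Of 28 other mural genes 27 were tested, and 4 had an unadjusted p under 0.05, all lower, with a median log2 fold change of -0.20. *Des* (desmin), *Tpm2* and *Tpm1* (tropomyosins) are also genes of skeletal muscle, and their log2 fold changes of -3.54, -2.57 and -0.35 became -0.34, -0.02 and -0.05 without E5386 and E5642. With common and tagwise dispersions *Des* and *Tpm2* passed in edgeR's exact test (adjusted p = 0.00177 and 0.00848), as they did without control E6578 or without control E6732. Over all genes tested these fits called 78, 98 and 89 genes. *Tbx18*, a transcription factor of mural cells and fibroblasts, was at 0.610, 0.944, 0.931 and 0.879 CPM in *Ager*-deleted mice and 0.520, 1.51, 1.85 and 2.24 CPM in controls. Control E5386 was the lowest of all and the other controls were the highest, and the log2 fold change was -0.86 (adjusted p = 1) with all mice and -1.30 (adjusted p = 0.00490 in edgeR's exact test) without E5386 and E5642. It also passed without E5386 alone (adjusted p = 0.00824). Over all genes tested 67 were called without E5386 and E5642, and 72 without E5386 alone. The order of the controls in *Tbx18* was that of the fibroblast list in its lowest and highest mouse, E5386 and E6732, and whether the 2 are connected was not tested.

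A list of 12 genes of peripheral capillary endothelium, such as that of muscle and fat, summed to 258 to 339.5 CPM in *Ager*-deleted mice and 246 to 526 CPM in controls, with the highest sum in E5386. Of its 9 tested genes 5 had an unadjusted p under 0.05 in edgeR's exact test, all lower, as were 3.06% of all genes. None passed the adjusted threshold. *Cd36*, a fatty acid translocase and 1 of these genes, reached 25.9 and 21.4 CPM in E5386 and E5642, with a range of 3.91 to 9.95 CPM elsewhere. Of the 16 endothelial identity genes 3 had their lowest value in E5386, against 9.45% of all genes tested. There 1, *Kdr*, had its highest, against 9.78% of all genes. Any part of peripheral vessels in the identity genes was not tested. A list of 10 genes named for choroid plexus, whose vessels have open endothelium, summed to 409 to 476 CPM in *Ager*-deleted mice and 346 to 469.5 CPM in controls. Its highest genes by mean level were *Enpp2*, *Slc4a5* and *Kl*, and whether any of these counts came from choroid plexus was not tested. The 8 erythrocyte genes, a measure of blood left in the tissue, summed to 104 to 332 CPM and 171 to 476 CPM.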

How the data were processed

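Lumbar cord RNA (stranded polyA libraries) was sequenced from 8 mice. Per the study's methods and the submitters' processing notes, the authors trimmed reads, aligned them to mm10 with STAR 2.7.3a and deposited raw counts per gene from featureCounts (Subread 1.6.3, GENCODE M25), with the strand setting not given in the sources used here. The authors also deposited log2 values for 19470 genes, which are log2 TMM-normalized CPM; the same calculation on the raw table (prior count 2) came within 4.78e-06 of them, and they were used only for that check. Columns were matched to mice by ID and none was pooled or left out.

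The raw counts were filtered with filterByExpr (minimum 10 counts), normalized by TMM and tested in edgeR 4.0.16 (R 4.3.3) on all 19470 genes, with the exact test as the main test (dispersions from estimateDisp without a design matrix, as the study's text names none) and the quasi-likelihood test for standard errors and 95% intervals. Adjustment for multiple tests was by Benjamini-Hochberg, with a threshold of 0.05. Single genes were compared as log2(CPM + 1) by exact two-sided permutation over the 70 splits of 8 mice into 4 and 4. The mice are separate animals of each genotype. The scripts were tested on simulated data.

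The 42 genes and all lists were chosen with earlier results of these data known. All 42 were named, with values by mouse for those with an unadjusted exact test p under 0.05, those without overlap between genotypes, the 2 highest per kilobase in each role and the activation genes. Of each further list of vessel genes, those with an unadjusted p under 0.05 were named, at most 5. GENCODE M21 on GRCm38, which precedes the authors' M25, gave positions, exon lengths and overlaps between genes. Promoters are from RefSeq on GRCm38.p6 and covered 28 of the 42 genes. The alternatives were RLE size factors, library size only, no filter or CPM over 1 in at least 4 mice, common and tagwise dispersions, DESeq2 1.42.0, limma-voom (limma 3.58.1), each mouse left out, E5386 and E5642 left out together, and a pseudocount of 0.1 CPM. Intervals and the floor of 3 counts cover counting error only where they rest on counts of 1 library. The human data, imaging and culture experiments are not analysed here.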

Additional observations from a re-analysis of the deposited data

Results flagged for a closer look

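*Acta2* in control E6578 stood apart from the other controls, at 11.3 CPM against 6.40 to 7.01 CPM, a gap of 0.875 of the group's range. Of 82 groups of 4 mice examined for such a gap, 1 was found, where chance alone gives about 1 in 20, or 4.1.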

How the results depend on the processing

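The number of genes called over all 19470, 14 in the main analysis, was 8 with CPM over 1 in at least 4 mice, 78 with common and tagwise dispersions, 25 in DESeq2, 1 in both the quasi-likelihood test and limma-voom, 67 without E5386 and E5642, and 3 to 98 with each mouse left out. Of the vascular genes, 0 were called in the main analysis, and 1, *Slco1a4*, was called in DESeq2, with common and tagwise dispersions, and without E5386 and E5642. With each mouse left out 0 or 1 was called, the 1 being *Slco1a4* without control E5386 or E6732, where 72 and 89 of all genes were called. The log2 fold change of *Ager* was -0.94 to -0.69 with each mouse left out and passed the threshold without control E5386 (-0.94, adjusted p = 0.0442 in edgeR's exact test). The median log2 fold change of each role moved by less than 1 measure of spread under every alternative run. That measure was the SD between mice of the role's median log2 CPM, from 0.13 for endothelial identity to 0.27 for pericyte genes. It exceeded each median itself, but it describes single mice and is not the error of a difference between 4 and 4 mice. As deviations from each gene's mean, barrier genes had medians of -0.04, 0.01, -0.13 and -0.09 in *Ager*-deleted mice. In controls these were -0.02, 0.12, 0.11 and 0.06. With each mouse left out, the median changed sign in every role but the barrier genes. It ran from -0.099 to 0.085 for endothelial identity genes and from -0.12 to 0.11 for activation genes. For pericyte genes it ran from -0.17 to 0.018 and for smooth muscle genes from -0.072 to 0.27.

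No vascular gene with a log2 fold change beyond 0.24 in either direction changed sign. With each mouse left out, the sign changed at least once for 20 of the 40 genes, with log2 fold changes of *Flt1* -0.12 to 0.066, *Pecam1* -0.14 to 0.034, *Tek* -0.010 to 0.18, *Esam* -0.029 to 0.12, *Eng* -0.14 to 0.074, *Erg* -0.097 to 0.043, *Ly6c1* -0.12 to 0.10, *Ly6a* -0.12 to 0.14, *Cldn5* -0.25 to 0.22, *Ocln* -0.11 to 0.0096, *Tjp1* -0.088 to 0.047, *Mfsd2a* -0.37 to 0.029, *Icam1* -0.22 to 0.11, *Vcam1* -0.12 to 0.099, *Rgs5* -0.10 to 0.019, *Vtn* -0.25 to 0.23, *Anpep* -0.47 to 0.0093, *Acta2* -0.12 to 0.34, *Myh11* -0.24 to 0.21 and *Cnn1* -0.11 to 0.37. In the other alternatives it changed for 10 of the 40 genes. With library size only, *Flt1* was 0.0071, *Ly6c1* 0.024, *Rgs5* 0.0010 and *Vtn* 0.0026. In limma-voom, *Ly6c1* was 0.0045, *Cldn5* -0.036, *Vcam1* -0.00022, *Vtn* 0.053 and *Myh11* 0.0054. Without E5386 and E5642, *Flt1* was 0.0071, *Pecam1* 0.032, *Ly6c1* 0.042, *Icam1* 0.015 and *Acta2* -0.090. The cause was not tested. No scaling moved the median of all genes by more than 0.1. The pseudocount of 0.1 CPM enters no call, since the tests use counts. With it in place of 1 CPM, the difference in mean log2 level was -0.52 against -0.51 for *Slco1a4*. It was -0.21 with both for *Abcg2*, and 0.46 against 0.40 for *Sox18*. No paired analysis was possible because the labels give the mice no replicate numbers shared between genotypes.

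With 4 mice per genotype, edgeR's 95% intervals leave room for differences of up to 0.5 on the log2 scale in most of the 40 genes and for larger ones in the rest. *Sele* and *Selp*, at 0 to 9 counts per mouse, were tested only with no filter on low counts.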
